A study of Drosophila melanogaster with 8 samples.

Results

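Sorted neurons of the Drosophila larval brain are described here by the level of each gene in FPKM, a fragment count corrected for the length of the transcript and the depth of the library. The series holds 8 libraries of polyadenylated RNA from 5 biological replicates, and the 3 libraries titled wild type neuron were taken, which are 2 of those 5 replicates. Neuron 1 was sequenced as a pair of technical replicates and neuron 2 once. The other 5 libraries, 3 replicates, come from neuroblasts, the stem cells that give rise to neurons. All samples carry the same transgenes and no mutation is named: asense-Gal4 drives UAS-stingerGFP, a fluorescent protein kept in the nucleus, in flies labelled wild type. Eggs were laid for 24 h, the progeny was raised for 5 days more at 25 degrees, and brains were dissected late in the third larval instar. The cells were collected by flow cytometry. They are therefore cells of the brain that hold the reporter, and not a sample of all its neurons. The labels do not say whether the replicates come from separate animals or sorts, nor how many brains were pooled, so the spread given below is that between 2 samples and may be technical.

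In the larval brain a neuroblast divides to renew itself and to leave a smaller ganglion mother cell, which divides once more into neurons or glia. A newborn neuron leaves the cell cycle, turns on pan-neuronal RNA-binding proteins, grows an axon with guidance receptors and adhesion molecules, and later builds synapses, ion channels and a transmitter. Many neurons born in the larva wait at an immature stage until metamorphosis, when the steroid hormone ecdysone drives their final differentiation.

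A gene was counted as expressed when it reached 1 FPKM in both replicates, where neuron 1 is the mean of its technical pair. Of the 14210 genes listed, 7515 (52.9%) were expressed. Another 409 passed 1 FPKM in neuron 1 and not in neuron 2, 260 passed it in neuron 2 and not in neuron 1, and 6026 were under it in both. The median level of the expressed genes was 15.3 FPKM, the 10th percentile 2.85 and the 90th percentile 76.8. Of the expressed genes 2774 had a mean under 10 FPKM, 4218 lay between 10 and 100, 498 between 100 and 1000, and 25 at 1000 or above. By the biotypes of a reference annotation, 7229 of 13374 protein-coding genes (54.1%) and 63 of 394 noncoding RNA genes were expressed. The FPKM values summed to 330151 and 321551 in the technical pair of neuron 1 and to 343514 in neuron 2. The fragments that could be recovered for genes taken to have a single transcript summed to 1443297, 1258367 and 953228, so neuron 2 was the shallowest. A gene near 1 FPKM rested on a median of 7, 6 and 5 fragments in the 3 libraries and a gene near 10 FPKM on 91.2, 84.0 and 66.9, so values near the threshold are imprecise. All 13 genes of the mitochondrial genome were listed at 0, so a listed 0 does not show that a transcript was absent.

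The 4 genes used here as neuron markers were high in every library. The zinc finger gene nerfin-1 (FBgn0028999, chromosome arm 3L, 909139 to 912319), which acts in newly formed neurons, stood at 812 and 799 FPKM in the technical pair of neuron 1 and at 1041 in neuron 2, the 35th highest mean of all genes. For elav (FBgn0260400, X, 406496 to 417259), which encodes an RNA-binding protein found in all neurons, the values were 323, 318 and 435 FPKM, a mean of 378 ± 81.1 (SD, n = 2 biological replicates). The vesicle fusion protein gene n-syb (FBgn0013342, 3L, 1630348 to 1637752) stood at 86.1, 83.9 and 90.3 FPKM. The technical pairs lay close together, and neuron 2 was above both libraries of neuron 1 for each of these genes in the values as deposited. The protein-coding FPKM summed to 293945 and 284648 in the technical pair and to 312661 in neuron 2. For n-syb the excess in neuron 2 was no larger than that of these sums. The active zone scaffold gene brp (FBgn0259246, 2R, 5391293 to 5428822) stood at 60.2, 62.1 and 105 FPKM, so its rank moved from 954 in neuron 1 to 553 in neuron 2. Both synaptic markers lay above 91% of the expressed genes in their mean level (percentiles 91.7 and 91.1), and elav and nerfin-1 at percentiles 98.2 and 99.5. Coordinates are as the files give them, and no source used here names the build.

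**Figure D1:**
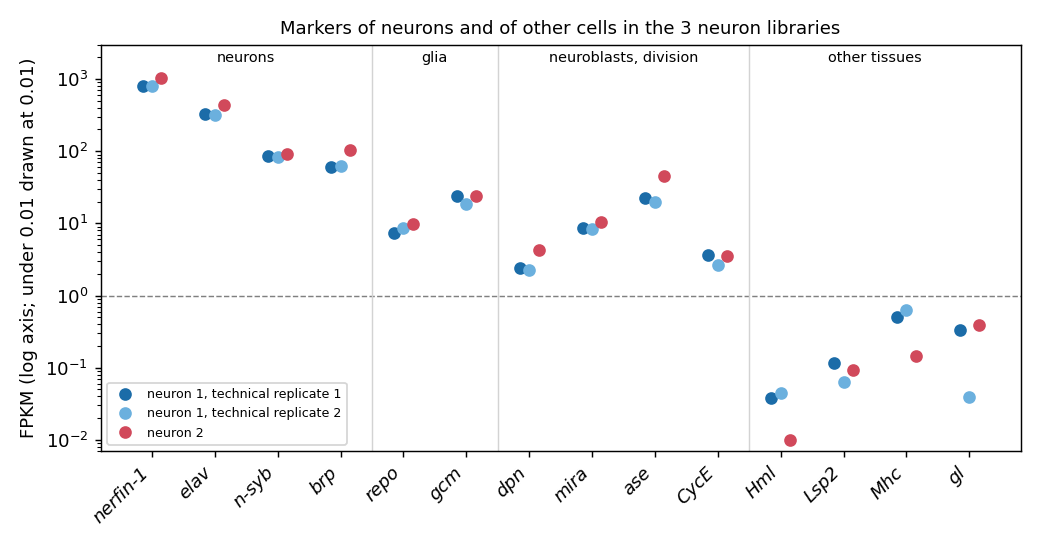
FPKM (log axis) of 14 genes in each of the 3 neuron libraries: the 4 neuron markers, glial genes, genes of neuroblasts and cell division, and genes of hemocytes (Hml), fat body (Lsp2), muscle (Mhc) and photoreceptors (gl), with a dashed line at 1 FPKM. The neuron markers lie between 60.2 and 1041 FPKM. The glial, neuroblast and division genes drawn lie between the line and 46.1 FPKM, and the drawn genes of other tissues below the line. They are picked from longer lists. Of these, 13 of 15 glial, 1 of 9 hemocyte, 0 of 7 fat body, 2 of 10 muscle and 3 of 9 photoreceptor markers were expressed. Among those not drawn, glial nrv2 stood at 52.2 and 81.3 FPKM in neuron 1 and neuron 2, and photoreceptor norpA at 38.7 and 50.3.

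Set against elav inside each replicate, the synaptic markers were lower and nerfin-1 was higher. The ratio of nerfin-1 to elav was 2.51 in neuron 1 and 2.39 in neuron 2. The ratio of n-syb to elav was 0.265 and 0.207, and that of brp to elav 0.191 and 0.240, so their order differed between the replicates. The ratio of pros to elav, where pros encodes a homeodomain factor that ends divisions in the daughter cells, was 0.562 in neuron 1 and 1.05 in neuron 2. These FPKM ratios keep their order of size in both replicates for nerfin-1, pros and the synaptic genes.

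The highest transcripts were heat shock genes, ribosomal protein genes, noncoding RNAs and cytoskeletal genes. The small heat shock genes Hsp26 and Hsp23, which encode chaperones, stood at 5303 and 4816 FPKM in neuron 1 and at 3879 and 2723 in neuron 2, and had the highest means of all protein-coding genes. In neuron 2 the ribosomal protein gene RpL41, at 3146 FPKM, lay above Hsp23. Hsp27, Hsp83 and Hsp68 also stood among the 20 highest means, and so did the stress-responsive noncoding RNA Hsromega, at 1319 and 2027 FPKM. Together 27 heat shock and related genes made up 7.19% of all FPKM in neuron 1 and 5.10% in neuron 2. The 93 cytosolic ribosomal protein genes made up 15.2% and 14.8%, a share that was close between the replicates. RpL41 led them, at 3591 FPKM in neuron 1, followed by RpS29 at 1516 and 1611.

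Other genes among the 20 highest were Act5C, a cytoplasmic actin, at 2251 and 1681 FPKM, and His3.3B, the replication-independent histone, at 2079 and 1827. The translation elongation factor gene Ef1alpha48D stood at 1270 and 2118 FPKM, and the chromatin protein gene Df31 at 1082 and 1405. The signalling adaptor gene 14-3-3epsilon stood at 980 and 1469 FPKM, and fax, a gene that interacts genetically with the Abl kinase in axons, at 902 and 1512. Each of these last 4 was higher in neuron 2. The noncoding RNA noe stood at 2078 and 3059 FPKM, the noncoding alphagamma-element:CR32865 at 2624 and 2660, and CR43283, the RNA that the reference names cherub, at 876 and 2223. Of the 100 genes with the highest mean, 73 were also among the 100 highest of neuroblasts, and 6144 expressed genes (81.8% of the neurons' expressed genes and 95.1% of the 6463 of neuroblasts) reached 1 FPKM in all 3 neuroblast replicates.

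**Figure D2:**
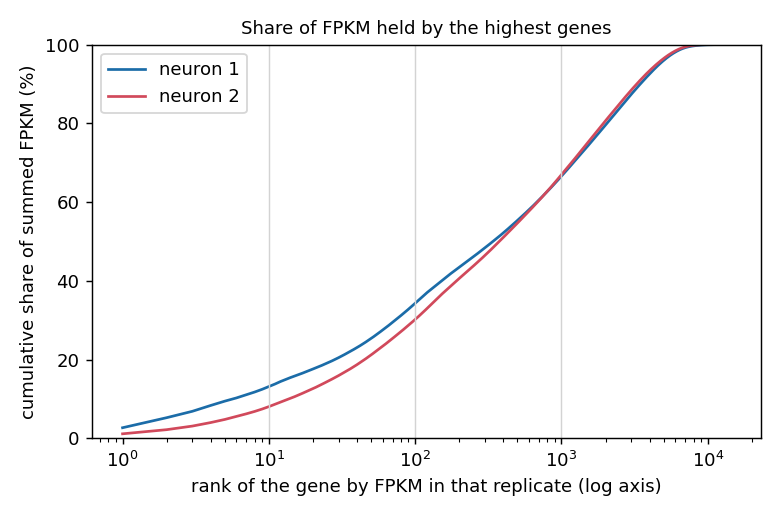
Cumulative share of summed FPKM (%) against the rank of the gene (log axis) in neuron 1 and neuron 2, with grey lines at 10, 100 and 1000 genes. The 10 highest genes hold 13.1% in neuron 1 and 8.04% in neuron 2, the 100 highest 34.3% and 30.2%, and the 1000 highest 66.6% and 67.0%, so the replicates differ at the top of the ranking and meet at 1000 genes.

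Factors of newborn neurons and ganglion mother cells were all expressed, 13 of 13, with a median of 52.9 FPKM against 15.3 for all expressed genes. Of all listed genes 52.9% were expressed, the share to set beside this count and those of the lists below. All 9 neuroblast factors and all 25 cell cycle genes passed too, so a high count is not particular to neuronal genes. After nerfin-1 came brat, a translational repressor handed to the daughter cell, at 649 and 601 FPKM in neuron 1 and neuron 2. The gene headcase (hdc) stood at 494 and 558 FPKM and pros at 180 and 457, the latter more than 2-fold apart between the replicates. The Cdk inhibitor gene dap, which holds cells out of the cycle, stood at 55.4 and 76.9 FPKM, and Hey, a Notch target in newborn neurons, at 65.8 and 53.4. The proneural gene ase, whose driver labels the cells, stood at 21.3 and 46.1 FPKM, more than 2-fold higher in neuron 2. The lowest member, sca, stood at 4.22 and 3.40 FPKM.

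Neuron identity genes were expressed in 13 of 13 cases with the highest median of the neuronal lists, 133 FPKM. Besides elav they were led by the zinc finger gene jim at 214 and 427 FPKM, the amyloid precursor-like gene Appl at 214 and 328, and CadN, a cadherin of axons, at 207 and 223. The SNARE clamp gene cpx stood at 125 and 294 FPKM. The elav relative fne stood at 121 and 182 FPKM, while Rbp9, the other member of that family on the list, was the lowest gene at 3.47 and 2.77. Rbp9 thus lay more than 10-fold below both elav and fne in each replicate.

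Genes for axon growth and guidance were nearly all expressed. Of 33 axon guidance receptors and ligands 31 passed 1 FPKM, with a median of 72.2 FPKM, and of 24 axonal cytoskeleton and transport genes 23 passed, with a median of 73.1. The cytoskeleton list, which includes the actin gene Act5C, summed to 5414 and 5248 FPKM in neuron 1 and neuron 2. In the neuroblast replicates it summed to 4011 to 5650 FPKM, so its level is not particular to neurons. The guidance list summed to 2027 and 2613 FPKM, against 420 to 795 in neuroblasts, given as values with no test. The receptor gene otk stood at 181 and 182 FPKM, the transmembrane semaphorin gene Sema-1a at 137 and 184, and dock, an adaptor that links guidance receptors to the actin cytoskeleton, at 119 and 138. The Abl kinase gene stood at 102 and 116 FPKM. The guidance genes not expressed were comm2, the lowest at 0.171 and 0.156 FPKM, and Sema-5c. Among cytoskeletal genes, the actin monomer binder chic (profilin) stood at 471 and 1041 FPKM and tsr (cofilin) at 348 and 514, and the axonal scaffold Ank2 at 483 and 470, with a failed status in Cufflinks for at least 1 library. The spectrin genes beta-Spec and alpha-Spec stood at 243 and 239 FPKM in neuron 1 and at 155 and 146 in neuron 2, the opposite direction to chic and tsr. DCX-EMAP, the lowest member of the list, stood at 0.126 and 0.0758 FPKM.

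The tubulin genes split into a pair of abundant and a set of scarce members. The beta-tubulin betaTub56D stood at 909 and 945 FPKM and the alpha-tubulin alphaTub84B at 831 and 995. The next, alphaTub84D, stood at 58.3 and 59.8 FPKM and the gamma-tubulin gammaTub23C at 16.8 and 21.5. The developmentally regulated beta-tubulin betaTub60D stood at 2.59 and 4.12 FPKM, so that betaTub56D was 351 and 229 times as high in neuron 1 and neuron 2. The testis beta-tubulin betaTub85D and CG32396 (betaTub65B in the reference) lay between 3.46 and 5.05 FPKM, and alphaTub67C, gammaTub37C, alphaTub85E and betaTub97EF lay under 1. In total, 7 of 11 tubulin genes were expressed (63.6%, against 52.9% of all listed genes). Reads of near-identical tubulin and actin genes may be split between copies, so levels of single family members are uncertain.

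Adhesion and recognition molecules were expressed broadly and at graded levels. Of 32 cell adhesion genes 30 passed 1 FPKM, with a median of 43.3 FPKM, led by neurotactin (Nrt) at 323 and 279, Dscam2 at 274 and 282 and CadN, given above, with the leucine-rich repeat gene trn next at 149 and 170. The lowest member, Nlg1, stood at 0.0308 and 0.0400 FPKM. The dpr and DIP genes encode immunoglobulin proteins that pair neurons with synaptic partners, and 29 of 30 passed 1 FPKM, but at a median of 8.81 FPKM, under that of all expressed genes. The highest were dpr7 at 31.7 and 89.3 FPKM, dpr12 at 48.3 and 50.9, and CG14010 (DIP-eta) at 42.8 and 27.5. CG11320 (DIP-iota) was the member not expressed, at 0.259 FPKM in neuron 1 and listed at 0 in neuron 2. In bulk RNA such a level cannot be told apart between a few cells with much transcript and many cells with little, and the same holds for fewer cells of a type and less RNA per cell in every list below.

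**Figure D3:**
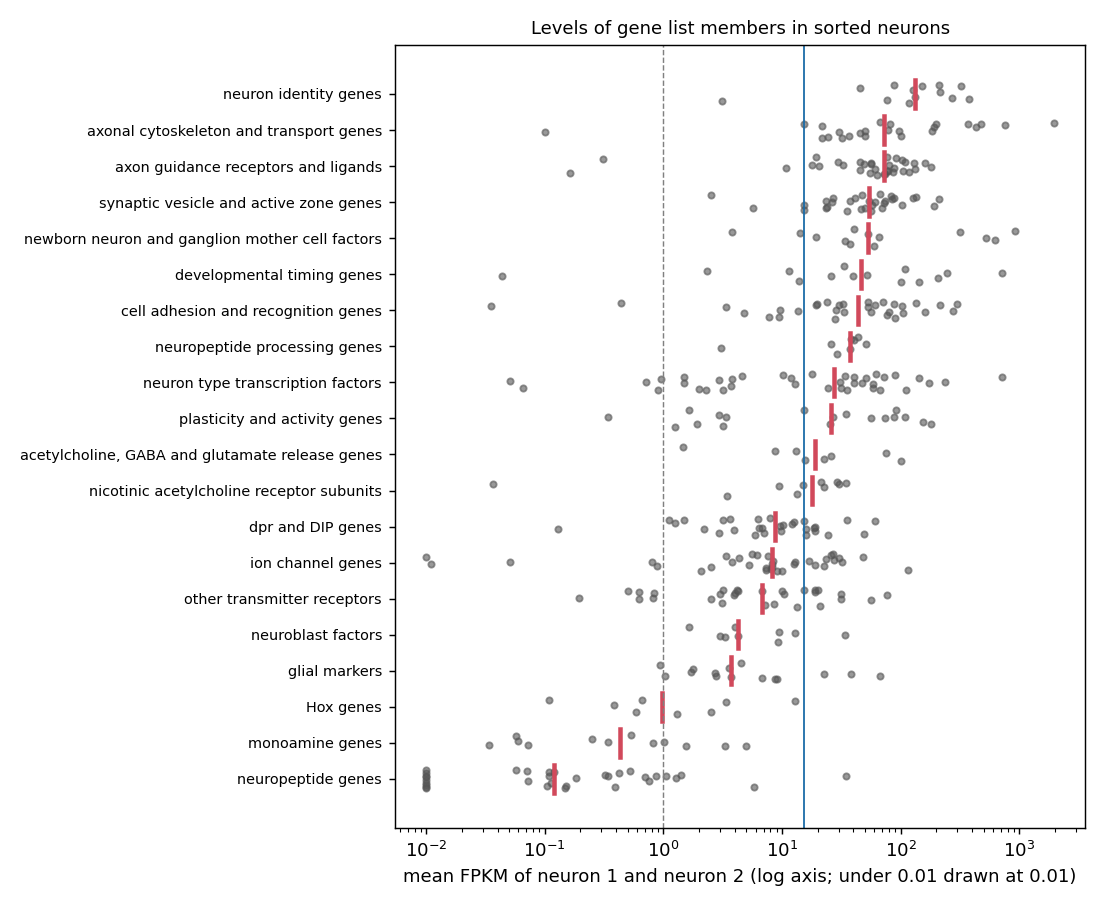
Mean FPKM of neuron 1 and neuron 2 (log axis) of the members of 20 gene lists, each point 1 gene, with the list's median as a red bar, a dashed line at 1 FPKM and a blue line at the median of all expressed genes, 15.3 FPKM. Identity, cytoskeleton, guidance and synaptic genes have medians of 133, 73.1, 72.2 and 54.4 FPKM, ion channels 8.18, monoamine genes 0.435 and neuropeptide genes 0.120.

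Of 32 genes listed for synaptic release 31 were found, and all 31 were expressed (52.9% of all listed genes were), at a median of 54.4 FPKM. The priming factor gene unc-13 stood at 92.9 FPKM in neuron 1 and 289 in neuron 2, cpx at 125 and 294, and the secretion gene Caps at 73.3 and 179. Of the 4 genes more than 2-fold higher in neuron 2, these are 3 and Syt7, at 32.3 and 76.5 FPKM, is the other. Unc-13, Caps and Syt7 lie on chromosome 4, which is described with the spread between replicates. The synaptotagmin gene Syt4 stood at 106 and 165 FPKM, the chaperone gene Csp at 73.6 and 132. The lowest member was Sytbeta at 2.12 and 2.96 FPKM. The median of the list was 48.0 FPKM in neuron 1 and 57.3 in neuron 2.

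Genes that make and load the fast transmitters were expressed at lower levels, 8 of 8 with a median of 19.1 FPKM. The vesicular acetylcholine transporter gene VAChT stood at 101, 97.7 and 102 FPKM in the 3 libraries, the vesicular glutamate transporter gene VGlut at 66.6, 69.5 and 83.8, and the vesicular GABA transporter gene VGAT at 26.5, 26.4 and 25.8. The order VAChT, VGlut, VGAT held in every library, and it is an order of these 3 transporter genes alone. The ratio of VAChT to VGlut was 1.46 in neuron 1 and 1.22 in neuron 2, and that of VAChT to VGAT 3.76 and 3.95. Choline acetyltransferase (Cha) stood at 21.9 and 23.0 FPKM, far below VAChT and also below VGlut and VGAT. The spans of Cha and VAChT overlap on 3R in the files, so how the counting shared their fragments is uncertain. Glutamate decarboxylase (Gad1) stood at 15.2 and 16.2 FPKM, the choline transporter CG7708 (ChT) at 13.6 and 12.4, and acetylcholinesterase (Ace) at 8.20 and 9.30. CG1732 (Gat), a GABA transporter that is chiefly glial, was the lowest at 1.07 and 1.84.

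Few genes of monoamine and peptide transmitters were expressed. Of 12 monoamine genes 3 were expressed, Vmat at 5.31 and 4.67 FPKM, the tetrahydrobiopterin pathway gene Pu at 3.13 and 3.53, and Tbh, which makes octopamine, at 1.89 and 1.19. The tyrosine hydroxylase gene ple, needed for dopamine, stood at 0.502 FPKM in neuron 1 and was listed at 0 in neuron 2, and the serotonin transporter gene SerT stood at 0.0479 and 0.0661. Of 33 neuropeptide genes 2 were expressed, sNPF at 30.8 and 38.4 FPKM and Nplp1 at 3.86 and 7.81. Each replicate read by itself, 6 neuropeptide genes passed 1 FPKM in neuron 1 and 4 in neuron 2, with list medians of 0.219 and 0 FPKM. Likewise 5 monoamine genes passed in neuron 1 and 3 in neuron 2, with medians of 0.764 and 0.105 FPKM. For 9 neuropeptide genes the value was listed at 0 in all 3 libraries: npf, Nplp3, Ilp5, Ilp3, Ast-C, Lk, CCHa1, Dsk and Eh. At a few fragments per FPKM, single strongly expressing cells in the pool would be hard to detect. The genes that process peptides were in contrast expressed in 8 of 8 cases with a median of 37.5 FPKM, led by the carboxypeptidase gene svr at 53.8 and 48.9, whereas dimm, the factor of peptidergic cells, was the lowest at 2.05 and 4.13.

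Receptors and ion channels were widely expressed at levels around or below the median of expressed genes. Of 10 nicotinic acetylcholine receptor subunits 9 passed 1 FPKM, with a median of 18.04, led by nAcRbeta-64B at 27.2 and 41.6 FPKM. The exception was nAcRbeta-21C at 0.0733 FPKM and at 0 in neuron 2. Of 29 other transmitter receptors 23 passed, with a median of 6.73 FPKM, led by CG3822 (KaiR1D), a kainate-type glutamate receptor, at 79.4 and 73.3, and the metabotropic GABA receptor gene GABA-B-R2 at 55.5 and 57.7. The GABA channel genes Lcch3 and Rdl stood at 28.4 and 34.9 FPKM and at 16.2 and 24.1. The histamine receptor gene ort, which serves targets of photoreceptors, was the lowest at 0.137 and 0.251.

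Of 35 ion channel genes 30 were expressed, with a median of 8.18 FPKM. The potassium channel gene Sh was the highest at 84.3 and 148 FPKM, by a wider margin in neuron 2 than in neuron 1. The next were Task6, a potassium leak channel, at 55.0 and 40.9 FPKM, stj, a calcium channel subunit, at 32.2 and 31.7, Teh2, an auxiliary subunit of the sodium channel, at 27.8 and 32.6, and the leak channel Task7 at 27.6 and 27.4. The sodium channel gene para, which carries the action potential, stood at 10.7 and 14.5 FPKM, a ratio to Sh of 0.127 and 0.0979. Irk2, an inward rectifier, was listed at 0 in all 3 libraries. Of 18 plasticity and activity genes 15 were expressed, with a median of 26.1 FPKM, led by calmodulin (Cam) at 152 and 205, Pka-C1 at 113 and 198 and CaMKII at 46.6 and 171.

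The medians of these lists fell from identity genes at 133 FPKM through guidance (72.2), synaptic (54.4), transmitter release (19.1), ion channels (8.18), other receptors (6.73) and monoamine genes (0.435) to neuropeptides (0.120). Against the 52.9% of all listed genes, 6.06% of the neuropeptide and 25.0% of the monoamine genes were expressed. The order of the lists was arranged after the values were seen. Other lists were left out of it, among them peptide processing (37.5), plasticity (26.1) and nicotinic receptor genes (18.04), which lie between synaptic genes and ion channels. The order held in neuron 1, in neuron 2 and when libraries were scaled to equal protein-coding sums. It did not hold when each list was cut to its expressed members. The replicates also make up the mean that set the order, so they are no independent check of it. These are levels at 1 stage, and they do not give the order in which genes turn on.

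Transcription factors that mark neuron types were expressed in 31 of 38 cases, with a median of 27.5 FPKM. The highest was br, a zinc finger gene of the ecdysone response, at 561 and 874 FPKM, followed by the LIM factor ap at 223 and 250, ct at 169 and 175, toy at 120 and 167, pdm3 at 81.9 and 142 and tup at 67.6 and 110. The POU gene nub was lowest, at 0.102 FPKM in neuron 1 and at 0 in neuron 2. Many of these genes mark distinct neuron classes, including optic lobe classes. Of 8 Hox genes 3 were expressed (37.5%, against 52.9% of all listed genes). They were Antp at 6.67 and 19.3 FPKM, Ubx at 2.12 and 4.62 and abd-A at 1.91 and 3.12. These 3 genes pattern the thoracic and abdominal parts of the nerve cord. The remaining 5 did not pass in both replicates: Scr at 0.752 and 1.83 FPKM, Abd-B at 0.263 and 1.07, pb at 0.574 and 0.613, Dfd at 0.188 and 0.582, and lab at 0.114 and 0.102. Scr and Abd-B passed in neuron 2 alone, so that 5 Hox genes were expressed there against 3 in neuron 1, and all but lab were higher in neuron 2.

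Genes of developmental timing were expressed in 13 of 14 cases with a median of 45.9 FPKM. Besides br, the ecdysone-induced genes Eip75B at 201 and 292 FPKM and Eip93F at 94.3 and 106 were high, and the ecdysone receptor gene EcR stood at 47.4 and 56.4. The RNA-binding protein genes Syp (CG17838 in the files) and Imp mark late-born and early-born neurons and act against each other. Syp stood at 182, 172 and 238 FPKM in the 3 libraries and Imp at 7.03, 6.14 and 16.4. The ratio of Syp to Imp was 26.8 in neuron 1 and 14.5 in neuron 2. Both genes were higher in neuron 2, Imp by more. The early-phase gene chinmo, a target of that pair, stood at 81.2 and 135 FPKM, and mamo at 108 and 175. The heterochronic gene lin-28 was the member not expressed, at 0.0867 FPKM and at 0 in neuron 2.

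Genes of neuroblasts and of division were present at low levels. All 9 neuroblast factors passed 1 FPKM with a median of 4.24, led by ase, then HLHmgamma at 12.2 and 13.8 FPKM, the adaptor gene mira at 8.42 and 10.5 and the Snail factor gene wor at 8.13 and 10.2. Their FPKM summed to 63.9 in neuron 1 and 99.1 in neuron 2, against 1598 to 1798 in the 3 neuroblast replicates, given here as values with no test. All 25 cell cycle genes passed 1 FPKM with a median of 7.38, from the phosphatase gene stg at 26.8 and 46.2 FPKM to Orc1 at 2.41 and 2.37, and summed to 313 and 350 FPKM against 4288 to 6704 in neuroblasts. How many ganglion mother cells, neuroblasts or newborn neurons with leftover transcripts this represents was not tested.

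Markers of other cells were read the same way. Of 15 glial markers 13 passed 1 FPKM with a median of 3.71, led by nrv2, a sodium pump subunit, at 52.2 and 81.3 FPKM, and drpr, an engulfment receptor, at 33.1 and 43.7. The glial fate gene gcm, which is also active in precursors of lamina neurons, stood between 18.3 and 24.3 FPKM in the 3 libraries and the pan-glial homeobox gene repo at 7.97 and 9.66. The glial list summed to 154 FPKM in neuron 1 and 196 in neuron 2. Of 9 hemocyte markers 1 passed (Pxn), of 7 fat body markers 0, of 10 muscle markers 2, of 4 tracheal markers 3, and of 8 optic lobe epithelium markers 3. Of all listed genes 52.9% passed. The tracheal and optic lobe epithelium counts lie within a few genes of that share. The hemocyte genes He and eater and the fat body gene Fbp2 were listed at 0 in all 3 libraries, and so were the photoreceptor genes trp and Arr2. Of 9 photoreceptor markers 3 passed, with norpA, a phospholipase C gene that also has other neuronal roles, at 38.7 and 50.3 FPKM. The collagen gene Cg25C, made by hemocytes and fat body, stood at 10.2 FPKM in neuron 1 and 0.258 in neuron 2. The share of such cells in the sorted pool was not tested.

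Stress and cell death genes were expressed in 16 of 16 cases. The list holds 8 chaperone genes, which lay between 723 and 5303 FPKM. The list median of 427 FPKM falls in the gap between the chaperones and the other members, so it describes neither group. Outside the chaperones the JNK pathway phosphatase gene puc stood at 68.5 and 55.1 FPKM. The cell death genes skl and grim stood at 26.3 and 37.8 FPKM and at 24.8 and 25.2, and Atf3 was the lowest at 3.01 and 3.46.

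The 2 biological replicates differed more than the technical pair did. By the flow cell in the file names neuron 1 and neuron 2 ran apart, so replicate and sequencing run cannot be told apart in this spread. The SD over expressed genes of the log2(FPKM + 1) difference was 0.522 between neuron 2 and neuron 1 and 0.272 within the technical pair. Of the 7515 expressed genes, 324 (4.31%) were more than 2-fold higher in neuron 2 and 134 (1.78%) more than 2-fold higher in neuron 1. Within the technical pair 19 genes were more than 2-fold higher in the second library and 48 in the first. Scaled to equal protein-coding sums, the split between the replicates was 259 higher in neuron 2 and 190 higher in neuron 1. By level, the SD at 100 FPKM or more was 0.613 between replicates and 0.110 in the technical pair. From 1 to under 10 FPKM it was 0.502 and 0.368, on a scale that understates the change of low genes. By gene span, given below, the widest SD between replicates went with the widest technical SD. The authors' Cufflinks intervals did not overlap for 2013 genes (26.8%) between neuron 2 and both libraries of neuron 1, against 367 (4.88%) within the technical pair. With 2 replicates no gene of this comparison was given a p-value.

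**Figure D4:**
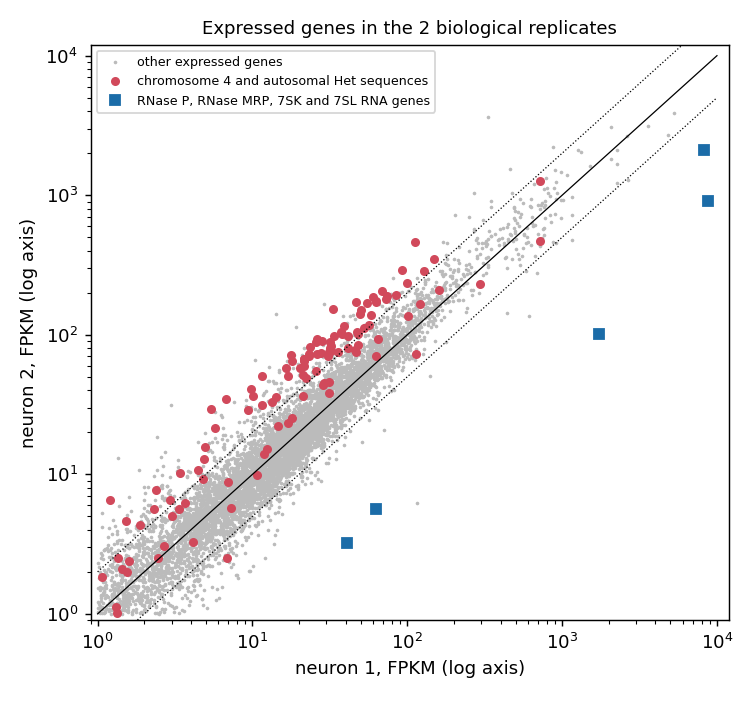
FPKM of each of the 7515 expressed genes in neuron 1 and neuron 2 (log axes), with the line of equality and dotted lines at 2-fold. Red points, genes of chromosome 4 and the autosomal Het sequences, lie mostly above the upper dotted line, and blue squares, 5 small noncoding RNA genes, lie below the lower one.

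Genes of chromosome 4 and of heterochromatic sequences were higher in neuron 2 as a class. Chromosome 4, the small dot chromosome, is rich in heterochromatin, and the sequences the files name Het hold genes from the heterochromatin of the larger chromosomes. Among the 60 expressed genes of chromosome 4 with a mean of at least 5 FPKM, the median log2 difference of neuron 2 minus neuron 1 was 1.22, a 2.34-fold ratio, and 56 were higher in neuron 2, 40 of them more than 2-fold. Among 36 genes of the 4 autosomal Het sequences it was 1.45, with 35 higher and 29 more than 2-fold. The 5910 genes of the arms 2L, 2R, 3L, 3R and X had a median of 0.01, and 5 genes of XHet 0.04. In the technical pair the medians were -0.12 on chromosome 4 and -0.12 on the autosomal Het sequences. Of the 324 genes more than 2-fold higher in neuron 2, 72 (22.2%) lie in these places, which hold 115 expressed genes, 1.53% of all. Put the other way, 62.6% of those 115 genes and 3.41% of the other expressed genes were more than 2-fold higher in neuron 2.

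**Figure D5:**
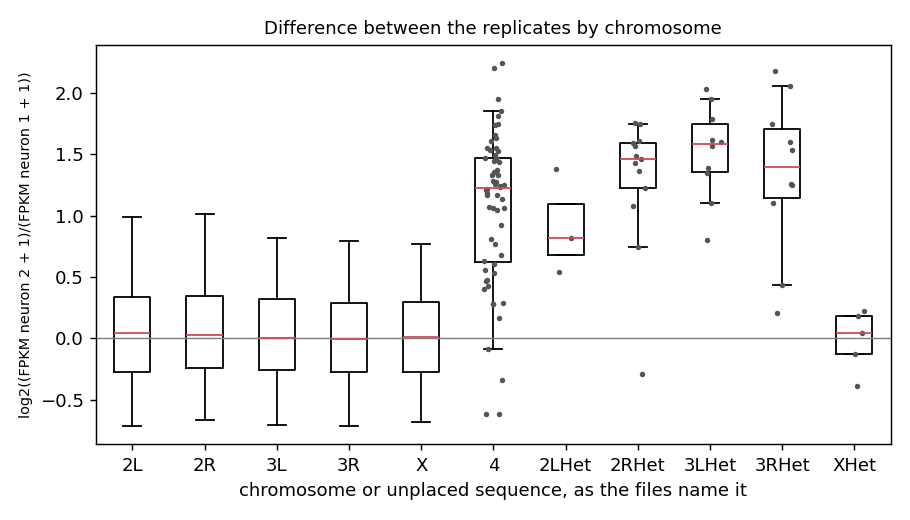
Log2 difference of neuron 2 minus neuron 1 on FPKM + 1 for expressed genes of at least 5 FPKM, by chromosome or sequence as the files name them, with boxes for the quartiles, red lines for the medians, whiskers from the 5th to the 95th percentile and points where there are at most 60 genes. Chromosome 4 has a median of 1.22 and 3LHet one of 1.58, while the larger arms and XHet centre on 0.

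This class holds several genes described above. The guidance receptor plexA stood at 62.3 and 174 FPKM in neuron 1 and neuron 2 and the Eph receptor gene at 74.3 and 188. Ephrin, its ligand, stood at 47.5 and 105 FPKM, plexB at 31.6 and 80.7, dpr7 at 31.7 and 89.3 and the metabotropic glutamate receptor gene mGluRA at 2.31 and 5.64. The transcription factor genes toy, ey and onecut on the same chromosome differed less, at 120 and 167, 62.8 and 70.3, and 101 and 136 FPKM. The neuroblast replicates also differed from each other in these genes. Neuroblast 1 exceeded neuroblast 2 by a median of 1.19 on chromosome 4 and 1.31 on the autosomal Het sequences, against 0.18 on the arms. It exceeded neuroblast 3 by 0.86 and 0.71, against -0.12. Neuroblast 2 minus neuroblast 3 gave -0.11 and -0.49, against -0.28. The Het sequences did not all behave alike: over the 10 genes of 3LHet, neuroblast 1 exceeded neuroblast 2 by 1.57, while its difference from neuroblast 3 was -0.13 and that of neuroblast 2 from neuroblast 3 was -1.27. By the flow cell in the file names, neuron 1 ran with neuroblast 1 and neuroblast 2, and neuron 2 did not. The cause of the difference was not tested.

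Small noncoding RNAs held the 2 highest ranks in neuron 1. The libraries were made from polyadenylated RNA, and how these RNAs passed that selection in each library was not tested. The gene for the RNA of RNase P (RNaseP:RNA) stood at 8302 FPKM in neuron 1 and 2098 in neuron 2, and snRNA:7SK, which restrains transcription elongation, at 8716 and 908. The RNA of RNase MRP (RNaseMRP:RNA) stood at 1719 and 101 FPKM and the signal recognition particle RNA 7SLRNA:CR32864 at 62.8 and 5.62. Together with 7SLRNA:CR42652 these 5 genes took up 5.78% of FPKM in neuron 1 and 0.907% in neuron 2. Other noncoding RNAs, unsRNA:d-a at 116 and 6.25 FPKM and unsRNA:CG10576-a at 607 and 137, moved the same way. In the opposite direction CR34335 stood at 334 and 3609 FPKM, the RNA polymerase subunit gene Rpb12 at 14.2 and 140, and CG33774 at 2.99 and 31.6. Among genes with a mean of at least 5 FPKM outside chromosome 4 and the autosomal Het sequences, the SD of the log2 difference was 0.826 for 551 genes spanning under 1000 bases and 0.407 for 1113 genes spanning at least 10000 bases, and 0.373 and 0.130 for the technical pair. The ribosomal protein gene RpS20 stood at 443 FPKM in neuron 1 and 144 in neuron 2, among the 10 largest differences toward neuron 1.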

How the data were processed

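Polyadenylated RNA of sorted neurons was measured in 3 libraries, and the dUTP libraries keep the strand, per the labels' protocols. No source used here says whether the strand entered the counting. Each library has a table of FPKM values deposited by the authors, with a confidence interval and a status per gene, per the file headers. FPKM is scaled by the authors to transcript length and library size. The submitters' processing notes name, without their roles, DESeq 1.8.3, HTSeq, BWA 0.6.1, Cufflinks 1.3.0 and TopHat 1.4.1. The authors' table of a comparison between cell types was not used.

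The technical pair of neuron 1 was averaged, and means and SDs are over the 2 biological replicates. Differences between replicates used log2(FPKM + 1). That scale understates the change of low genes. No test was made. Fragments were recovered from the Cufflinks interval, as the square of 2 times the FPKM over the distance to the upper bound. Genes with a single entry in the tss_id field were used, taken here to have a single transcript. Cufflinks reported a failed estimate for 13 genes and too little data for 52 in at least 1 neuron library.

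Biotypes and current names came from an annotation of another build, release 115, which matched 13575 gene IDs and a further 233 by symbol, leaving 402. The 29 gene lists hold 513 entries, of which 512 were found (stnA was not). The members and lists were chosen with earlier results of these data known. The rule names the markers, the 20 highest means, up to 6 of the highest and the lowest member of each list, members listed at 0 and the 10 largest differences between replicates in each direction at a mean of at least 10 FPKM. All members of the acetylcholine, GABA and glutamate, Hox and tubulin lists, and Imp and Syp, are named too. Not every gene that the rule covers is named, and of the monoamine and neuropeptide lists only some members are. Other list members in the text were named after their values were seen. Analyses ran in Python 3.11.15 with pandas 2.3.3 and numpy 2.4.6, tested on simulated data.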

Additional observations from a re-analysis of the deposited data

How the results depend on the processing

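The number of expressed genes stayed within 1.5 times of 7515 under each alternative tried, from 5706 at 5 FPKM to 8103 at 0.5 FPKM, and was 7775 to 7924 with a replicate left out. The share of FPKM in the 100 highest genes was 29.1% among protein-coding genes, 32.4% with status OK, and 30.2% to 34.3% with a replicate left out, against 32.2%. The SD between replicates was 0.582 with a pseudocount of 0.1, 0.591 with none, 0.501 and 0.484 at 5 and 10 FPKM in both replicates, 0.538 and 0.545 with technical replicate 1 or 2 alone, and 0.504 without genes of chromosome 4 and the autosomal Het sequences, an alternative chosen after seeing the data. The count higher in neuron 1 was 225 with a pseudocount of 0.1, 242 with none, and 63 and 29 at 5 and 10 FPKM. The count higher in neuron 2 was 200 at 10 FPKM. The median of the list medians rose from 8.18 to 19.1 FPKM over expressed members alone, which drops the low genes, and was 8.03 to 8.29 with a replicate left out. All 29 lists kept their expressed count within 1.5 times under protein-coding scaling, 26 at 0.5 FPKM, 28 at 2 and 15 at 5, and 26 with either replicate left out. The lists that moved with a replicate left out were Hox genes (3 to 5), monoamine genes (3 to 5), neuropeptide genes (2 to 4 or 6), hemocyte markers (1 to 2) and fat body markers (0 to 1). Expressed list members numbered 402 to 403 with a replicate left out, against 390. No paired analysis was possible because no test was made. Neuron 2, at 953228 recovered fragments, limits values near 1 FPKM.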
